A study of Homo sapiens with 6 samples.

Results

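Superoxide dismutases, catalase and the NADPH oxidase family were examined in irradiated HK-2 cells, which are human renal tubular cells kept in culture by immortalization. The 10 genes were chosen by name as superoxide and peroxide scavengers (SOD1, SOD2, SOD3 and CAT) and as producers or parts of producers (NOX1, NOX4, NOX5, DUOX1, DUOX2 and CYBA), and each matched 1 of the 38648 genes and gene copies listed for every library. Cells carried either a negative control lentivirus (IR+NC-LV) or a lentivirus overexpressing PRDM16 (IR+PR-LV), were selected with puromycin, and gave 3 libraries of oligo(dT)-purified RNA per group. Both groups had received X-rays as 1 dose of 8 Gy and were collected on day 7, so that no unirradiated cells enter the comparison. The labels do not state whether the 3 libraries of a group came from separate transductions or cultures, and p-values then measure only the spread between these libraries.

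Superoxide is formed when an electron is passed to oxygen, either as a leak from the mitochondrial respiratory chain or on purpose by NADPH oxidases in membranes. Superoxide dismutases turn it into hydrogen peroxide, with SOD1 acting in the cytosol, SOD2 in the mitochondrial matrix and SOD3 outside the cell, and catalase breaks the peroxide down in peroxisomes. Of the oxidases, NOX1, NOX3 and CYBB (the phagocyte oxidase, also known as gp91phox) need cytosolic organizer and activator proteins, NOX4 is constitutively active and is best known from the renal tubule, and NOX5, DUOX1 and DUOX2 respond to calcium. CYBA encodes p22phox, the small membrane partner that stabilizes NOX1, NOX3, NOX4 and CYBB but carries no electron transfer of its own.

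The total count per library ranged from 13407074 in IR+NC-LV replicate 3 to 28540041 in IR+PR-LV replicate 2, and the 6 libraries held 115430886 reads. PRDM16 had 2, 0 and 1 reads in IR+NC-LV and 14, 10 and 8 reads in IR+PR-LV, a ratio of rates of 8.51 with an exact 95% interval of 2.66 to 43.4. These reads were too few for the filter of the main test, and without a filter the log2 fold change was 3.03 (adjusted p = 0.00872 from edgeR). Markers of the proximal tubule were mostly low: of 10 such genes GGT1 led at 69.9 TPM (a level per exon length with equal library sums, which compares genes only as far as the lengths assigned to them hold), while LRP2 had 3 reads, HNF4A 4 reads and SLC22A6 1 read over all libraries. Of 6 epithelial markers the keratin KRT8 led at 834 TPM. The cadherins, named after their values had been seen, differed, with 0.420 TPM for CDH1 (71 reads over all libraries) and 229 TPM for CDH2. None of the marker genes passed the test between the groups described below, and EPCAM, the epithelial marker with the smallest unadjusted p, was estimated at a log2 fold change of 0.22 (standard error 0.10) with an adjusted p of 0.474 from edgeR. Markers of endothelium summed to at most 0.640 TPM in any library, and those of fibroblasts to between 10.1 and 15.3 TPM.

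HK-2 cells expressed the 3 dismutases, catalase and CYBA, but hardly any catalytic NADPH oxidase. With at least 10 reads in every library taken as detected, 5 of the 10 genes were detected, and the same 5 stood above 1 TPM in every library. SOD1 had 953, 983 and 813 TPM in IR+NC-LV and 1056, 1024 and 999.7 TPM in IR+PR-LV. It ranked 121 of all listed genes by mean TPM. In RNA from whole cultures, fewer expressing cells and less RNA per cell cannot be told apart. SOD2 had 209, 217 and 160 TPM in IR+NC-LV and 186, 216 and 209.8 TPM in IR+PR-LV, the lowest value being that of IR+NC-LV replicate 3. SOD3, the secreted enzyme, had 18.4, 16.3 and 12.4 TPM in IR+NC-LV and 17.1, 14.1 and 12.1 TPM in IR+PR-LV. CAT had 36.5, 39.8 and 42.2 TPM in IR+NC-LV and 30.1, 36.4 and 37.7 TPM in IR+PR-LV. On the TPM scale the groups overlapped for SOD2, SOD3 and CAT. The SOD1 values of IR+PR-LV lay above those of IR+NC-LV in TPM, as for 4.36% of all genes tested, but the groups overlapped in CPM, the scale used for the comparison below.

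CYBA had 250.3, 239.7 and 216 TPM in IR+NC-LV and 249, 212 and 189.8 TPM in IR+PR-LV, and lay in the same range as SOD2. In the order of mean TPM over the 6 libraries, SOD1 (972 ± 85.1 TPM, SD, n = 6) was followed by CYBA (226 ± 24.1 TPM), SOD2 (199.7 ± 22.5 TPM), CAT (37.1 ± 4.10 TPM) and SOD3 (15.1 ± 2.60 TPM). Only the neighbors CYBA and SOD2 overlapped in this order, and the place of SOD2 depends on the length assigned to it, as described below. Below these genes lay a gap to DUOX1 (0.358 ± 0.144 TPM, SD, n = 6).

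**Figure D1:**
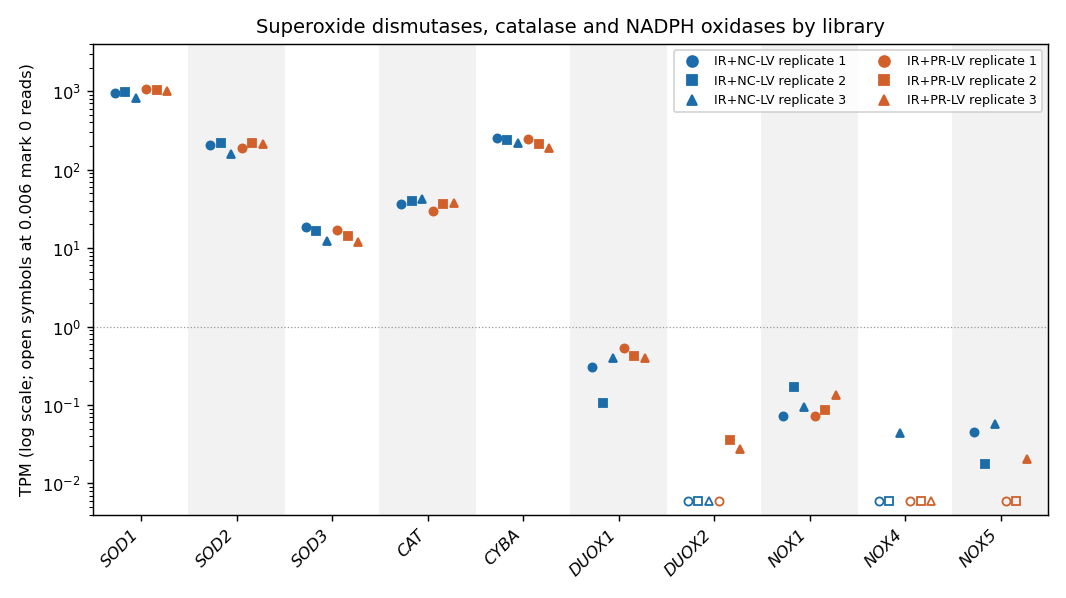
TPM (level per exon length, log scale) of the 10 genes in each of the 6 libraries, with blue for IR+NC-LV, orange for IR+PR-LV and symbol shapes for the replicates. Open symbols near the lower edge mark libraries with 0 reads, the dotted line marks 1 TPM, and the 5 detected genes lie above 12 TPM in every library while DUOX1, DUOX2, NOX1, NOX4 and NOX5 stay under 1 TPM.

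Apart from DUOX1, the catalytic oxidases among the 10 genes were at the limit of detection. NOX4, the oxidase associated with the renal tubule, had 1 read in all 6 libraries, in IR+NC-LV replicate 3. This amounts to 0.00866 CPM (read counts scaled to an equal library total, with no division by length), with an exact 95% Poisson interval of 0.000219 to 0.0483 CPM that, like the other intervals on reads given here, covers counting error only. NOX1 had 1, 3 and 1 reads in IR+NC-LV and 1, 2 and 2 reads in IR+PR-LV, and 7.96% of its exon bases overlap CSTF2 on the opposite strand, a gene with 7424 reads. The submitters' notes do not state whether the counting used the strand, so these reads may not be those of NOX1. NOX5 had 2, 1 and 2 reads in IR+NC-LV and 0, 0 and 1 in IR+PR-LV, a ratio of rates of 0.160 with an exact 95% interval of 0.00337 to 1.43. DUOX2 had 0 reads in each IR+NC-LV library and 0, 2 and 1 reads in IR+PR-LV, which is at the floor of 3 reads taken as the upper limit for a count of 0.

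DUOX1, which releases hydrogen peroxide at the cell surface, had the most reads of the catalytic oxidases, 72 over the 6 libraries. It had 9, 4 and 9 reads in IR+NC-LV and 16, 21 and 13 reads in IR+PR-LV. The maturation factors that carry the DUOX proteins to the membrane were scarcer still, with 8 reads for DUOXA1 and 1 read for DUOXA2 over the 6 libraries. Among the catalytic subunits outside the 10 genes, CYBB had 17 reads and NOX3 9 reads in total. The 7 catalytic oxidases together held 118 reads, against 20426 reads of CYBA alone, and per length the mean level of CYBA was 299 times that of the 7 summed.

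Among these 118 reads, DUOX1 had the highest mean share per length, with 53.7%, 28.9% and 40.9% in IR+NC-LV and 72.0%, 54.8% and 34.9% in IR+PR-LV. The mean share was 41.2% ± 12.5 for IR+NC-LV and 53.9% ± 18.6 for IR+PR-LV (SD, n = 3 each, 2-sided exact permutation test, p = 0.4, where 3 libraries against 3 cannot go below p = 0.1). The groups overlapped. DUOX1 did not lead in every library: in IR+NC-LV replicate 2 NOX1 held 47.0% from 3 reads, against 28.9% for DUOX1 from 4 reads.

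The sequence upstream of the start site did not fully separate the expressed genes from the silent ones by base composition. RefSeq (GRCh38.p14) windows were matched for 9 of the 10 genes, all but SOD1. Of each the 250 bases before the start were read, taking for a gene with several windows the one nearest to the start of its first GENCODE transcript. SOD2, CAT and CYBA are shown as expressed genes, and NOX4 and NOX1 as genes with at most 10 reads. Capitals mark GC boxes (GGGCGG, or CCGCCC on the other strand), the motif of Sp1-like factors, and CCAAT boxes (CCAAT, or ATTGG on the other strand).
SOD2, chr6:159693242-159693491, minus strand: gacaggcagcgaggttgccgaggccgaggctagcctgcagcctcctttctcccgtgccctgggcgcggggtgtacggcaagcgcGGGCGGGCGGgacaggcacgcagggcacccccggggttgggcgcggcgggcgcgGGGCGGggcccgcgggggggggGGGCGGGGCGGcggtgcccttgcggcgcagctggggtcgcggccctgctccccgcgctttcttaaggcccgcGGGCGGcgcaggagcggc
CAT, chr11:34438684-34438933, plus strand: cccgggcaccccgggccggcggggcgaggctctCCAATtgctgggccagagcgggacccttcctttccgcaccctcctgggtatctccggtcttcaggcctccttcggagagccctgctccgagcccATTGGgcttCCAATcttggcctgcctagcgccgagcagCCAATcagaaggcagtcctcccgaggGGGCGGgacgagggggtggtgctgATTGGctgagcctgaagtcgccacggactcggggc
CYBA, chr16:88651054-88651303, minus strand: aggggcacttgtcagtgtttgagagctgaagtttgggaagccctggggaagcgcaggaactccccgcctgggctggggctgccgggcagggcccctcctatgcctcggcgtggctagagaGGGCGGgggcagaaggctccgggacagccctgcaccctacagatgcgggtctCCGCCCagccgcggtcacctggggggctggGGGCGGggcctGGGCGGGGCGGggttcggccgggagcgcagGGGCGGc
NOX4, chr11:89491376-89491625, minus strand: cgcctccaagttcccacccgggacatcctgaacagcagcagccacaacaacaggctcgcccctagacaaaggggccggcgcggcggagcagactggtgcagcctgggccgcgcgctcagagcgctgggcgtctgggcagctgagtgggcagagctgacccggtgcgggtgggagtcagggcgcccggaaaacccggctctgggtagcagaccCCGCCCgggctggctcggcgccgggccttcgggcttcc
NOX1, chrX:100874360-100874609, minus strand: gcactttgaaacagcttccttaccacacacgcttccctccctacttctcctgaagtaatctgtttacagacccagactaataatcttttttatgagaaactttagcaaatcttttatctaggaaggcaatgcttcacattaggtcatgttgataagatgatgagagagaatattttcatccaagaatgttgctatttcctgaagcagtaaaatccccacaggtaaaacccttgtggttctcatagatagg

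Counted with overlapping matches, SOD2 and CYBA each held 6 GC boxes, CAT held 1 GC box and 5 CCAAT boxes, and NOX4 held 1 GC box. NOX1 held neither motif and a single CpG (a C followed by a G). Of 35116 windows of the same length, 42.6% held a GC box and 32.0% a CCAAT box on either strand, and the median window had 11 CpG. SOD2 had 35 CpG, CAT and CYBA 18 each, and the silent NOX4 23, while SOD3, which was expressed, had 10. DUOX1 had 30 CpG and 3 GC boxes. DUOX2 had 15 CpG and NOX5 0, both without either motif, and the NOX5 window lies 84170 bases from the start of its first GENCODE transcript. The percentage of G and C was lower in NOX1 (38.4%), NOX5 (48.4%) and DUOX2 (59.6%) than in the expressed genes with a window. These ranged from 61.6% (SOD3) to 80.8% (SOD2). NOX4 at 72.0% lay among them, and so did DUOX1 at 72.8%, which was not among the detected genes. No binding or chromatin data accompany these libraries, and a match is a description of the letters.

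The balance between SOD1 and SOD2 depended on the length by which reads are divided. SOD2 had 126723 reads in the 6 libraries and SOD1 31148, so that SOD2 had 4.07 times as many reads and ranked 53 among all listed genes by mean CPM. The files assign SOD2 17592 exon bases, with exons spread over 159669069 to 159762281 on chromosome 6, and assign SOD1 895 bases (chromosome 21, 31659693 to 31668931). Divided by these lengths, SOD1 made up 81.9% ± 1.16 and SOD2 16.8% ± 1.15 of the summed dismutase level (SD, n = 6), and SOD3 1.27% ± 0.199. GENCODE release 29 lists 7 basic coding transcripts of SOD2 between 815 and 14266 bases, with a median of 991 bases. Divided by the median coding transcript length of each gene, SOD2 made up 78.5% ± 1.45 and SOD1 21.1% ± 1.43 (SD, n = 6). The level of SOD2 relative to SOD1 was thus between 0.176 and 0.2205 in the 6 libraries with the exon length of the files, between 0.235 and 0.2935 with the longest coding transcript, and between 3.20 and 4.005 with the median one. Counts per gene do not show which transcripts the reads came from, and the order of SOD1 and SOD2 cannot be told from them. Further, 5.05% of the exon bases of SOD2 overlap SOD2-OT1 on the same strand (18 reads), 1.19% overlap WTAP and 0.557% overlap ACAT2 on the opposite strand.

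Within a given length, the share of SOD2 did not separate the groups. With the exon length of the files it was 17.7%, 17.8% and 16.2% in IR+NC-LV and 14.8%, 17.2% and 17.2% in IR+PR-LV. The difference was -0.84 percentage points (2-sided exact permutation test, p = 0.5), and -0.99 points when reads were not divided by length.

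The 2 groups address whether PRDM16 overexpression went with a difference in the genes that make or remove superoxide and peroxide after irradiation. Of the 10 genes, 6 passed edgeR's filter on low counts and were tested, and 4 oxidases (NOX1, NOX4, NOX5 and DUOX2) did not. None of the 6 passed the threshold of an adjusted p under 0.05 in the quasi-likelihood test of edgeR, adjusted by the Benjamini-Hochberg method over 15340 genes and gene copies, of which 0.0652% passed. At an unadjusted p under 0.05 there were 0 of the 6, against 10.5% of all genes tested. DESeq2 also called 0 of these 6 (against 1.04% of all genes to which it gave an adjusted p), with 1 at an unadjusted p under 0.05, namely SOD1 (unadjusted p = 0.0388 from DESeq2). The median log2 fold change of the 6 genes was 0.0060, with 3 positive and 3 negative estimates, and that of all genes tested was 0.0044.

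SOD1 had 262, 275 and 208.5 CPM in IR+NC-LV and 294, 287.5 and 274 CPM in IR+PR-LV (CPM scaled by edgeR's TMM method). IR+NC-LV replicate 3 was the lowest library, and on this scale, unlike in TPM, the groups overlapped because IR+NC-LV replicate 2 lay above IR+PR-LV replicate 3. The log2 fold change was 0.20 (standard error 0.10, 95% interval -0.02 to 0.42, adjusted p = 0.511 from edgeR), a fold of 1.15. Without IR+NC-LV replicate 3, which is also the shallowest library, it was 0.09, and the part of depth in this was not tested.

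SOD2 had 1129, 1193 and 805 CPM in IR+NC-LV and 1019, 1193 and 1131 CPM in IR+PR-LV. As for SOD1, IR+NC-LV replicate 3 was the lowest library, and the groups overlapped. The log2 fold change was 0.10 (standard error 0.13, 95% interval -0.20 to 0.40, adjusted p = 0.835 from edgeR). It turned to -0.057 without IR+NC-LV replicate 3.

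SOD3 had 8.57, 7.73 and 5.39 CPM in IR+NC-LV and 8.03, 6.71 and 5.59 CPM in IR+PR-LV, with overlapping groups. Its log2 fold change was -0.10 (standard error 0.20, 95% interval -0.55 to 0.35, adjusted p = 0.886 from edgeR), and the sign turned without IR+NC-LV replicate 1 (0.031) and without IR+PR-LV replicate 3 (0.016). The interval runs from a fold of 0.683 to 1.27, and smaller differences in this gene were not detectable here.

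Catalase, the peroxide scavenger of peroxisomes, had 25.6, 28.5 and 27.7 CPM in IR+NC-LV and 21.4, 26.2 and 26.5 CPM in IR+PR-LV. IR+PR-LV replicate 1 was the lowest library, and the other IR+PR-LV libraries lay above IR+NC-LV replicate 1. The log2 fold change was -0.14 (standard error 0.10, 95% interval -0.37 to 0.09, adjusted p = 0.670 from edgeR), and without IR+PR-LV replicate 1 it was -0.05. The exons of CAT (chromosome 11, 34438934 to 34472060) add up to 2291 bases and overlap no other gene's.

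CYBA had 197, 192 and 159 CPM in IR+NC-LV and 198, 170.4 and 149 CPM in IR+PR-LV. The log2 fold change was -0.08 (standard error 0.11, 95% interval -0.34 to 0.17, adjusted p = 0.831 from edgeR), and it turned to 0.010 without IR+PR-LV replicate 3. The groups overlapped, with the highest and the lowest library both in IR+PR-LV.

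DUOX1 had 0.536, 0.1897 and 0.647 CPM in IR+NC-LV and 0.952, 0.7499 and 0.7055 CPM in IR+PR-LV. All 3 IR+PR-LV libraries lay above all 3 IR+NC-LV libraries (exact permutation test, 2-sided p = 0.1, the smallest possible), as was the case for 7.46% of all genes tested. DUOX1 was the only one of the 6 tested genes whose groups did not overlap in CPM. The log2 fold change was 0.87 (standard error 0.41, 95% interval -0.06 to 1.80, adjusted p = 0.502 from edgeR), and without IR+NC-LV replicate 2, which had 4 reads, it was 0.43. From 22 reads in the IR+NC-LV group and 50 reads in the other, the ratio of rates was 1.81, with an exact 95% interval of 1.08 to 3.14. This interval pools the reads of a group and covers counting error only, whereas the edgeR interval, which includes 0, also covers the spread between libraries. With fewer than 10 reads in each IR+NC-LV library the gene came through the filter largely by its IR+PR-LV libraries, and no IR+PR-LV library exceeded 0.532 TPM. Among 9817 genes with at least 10 CPM, the pattern of DUOX1 over the 6 libraries was nearest to those of NDE1, SBNO2 and PRPF8. The root mean square differences were 0.316, 0.3455 and 0.354 on the log2 scale. With 4 to 21 reads of DUOX1 per library its pattern holds much counting error, and the 3 genes were picked as the closest of the 9817. Whether they vary together with DUOX1 beyond this was not tested.

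**Figure D2:**
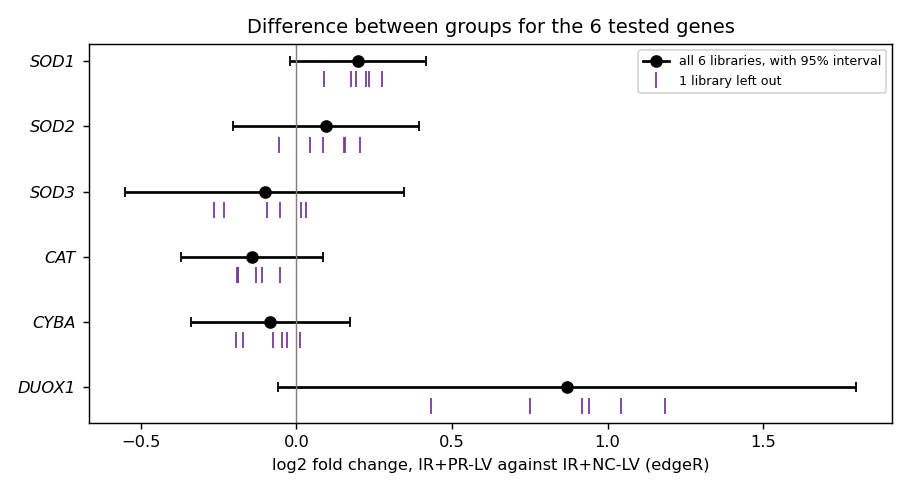
Log2 fold change of IR+PR-LV against IR+NC-LV from edgeR for the 6 tested genes (black points, with bars for the 95% interval) and the estimates with 1 library left out at a time (purple ticks). Every interval includes 0, and the interval of DUOX1 from -0.06 to 1.80 is the widest.

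Ratios between genes of the same library, which do not depend on the scaling between libraries, were then compared for 5 pairs chosen after the levels had been seen. The log2 ratio of the TPM of SOD1 to that of CAT was 4.71, 4.62 and 4.27 in IR+NC-LV and 5.13, 4.81 and 4.73 in IR+PR-LV, all of the latter being above the former. The mean difference was 0.36 (2-sided exact permutation test, p = 0.1, the smallest possible, and 0.25 after Benjamini-Hochberg adjustment over the 5 ratios). The log2 ratio of SOD1 to CYBA was likewise higher in all IR+PR-LV libraries, by 0.29 on average (exact permutation test, p = 0.1, adjusted 0.25). Both ratios contain SOD1, so they are not 2 separate observations. The TPM of SOD1 alone also separated the groups in this direction, as for 4.36% of all genes tested. How often ratios of other gene pairs separate the groups was not examined. For SOD1 to SOD2, SOD2 to CAT and CAT to CYBA the groups overlapped, with differences of 0.09, 0.26 and -0.06 and exact permutation p-values of 0.5, 0.2 and 0.9. None of the 5 could pass a threshold of 0.05 with 3 libraries against 3.

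The partners of the oxidases showed the same division as the oxidases themselves. The small GTPases were abundant, with mean levels of 512 TPM for RAC1, 177 TPM for RAC2 and 22.1 TPM for RAC3, and POLDIP2, which binds p22phox, had 92.5 TPM. CYBC1, a chaperone of the CYBB and CYBA heterodimer, had 23.5 TPM. In contrast, the organizers NCF1 (p47phox) and NOXO1 had 3 and 27 reads in total (reads of NCF1 can be shared with its near-identical pseudogene copies, so that its count is uncertain), NCF4 had 3 reads, and the activator NOXA1 had 0.904 TPM. Of the 14 partner genes and further catalytic subunits, 7 were tested and 0 passed the threshold in edgeR, also at an unadjusted p under 0.05. Their median log2 fold change was -0.04, and the smallest unadjusted p was that of NOXA1 (log2 fold change -0.41, standard error 0.34, adjusted p = 0.718 from edgeR).

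**Figure D3:**
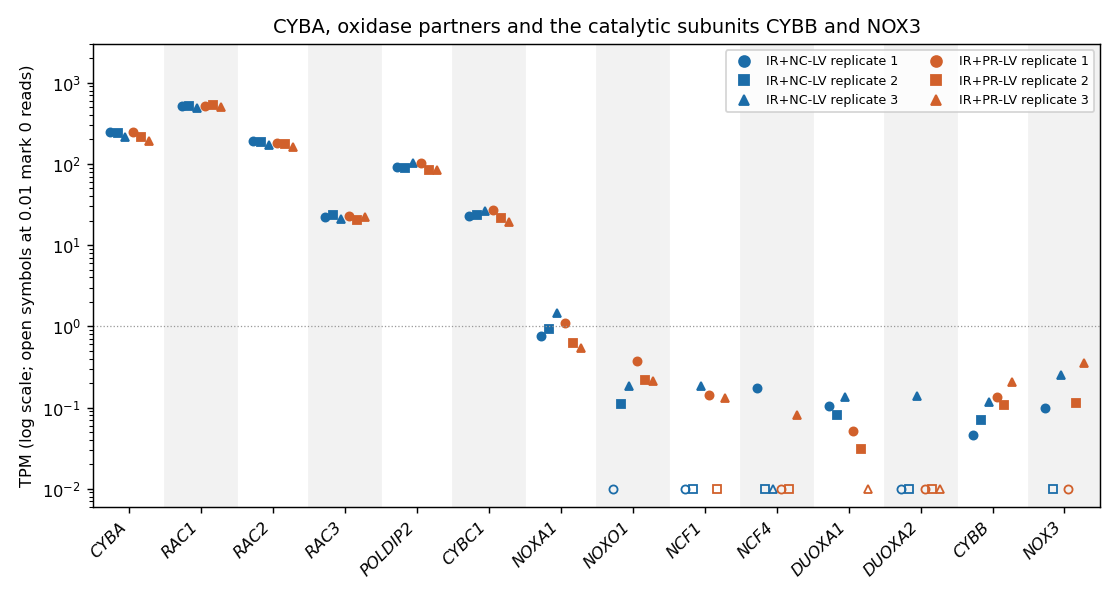
TPM (log scale) of CYBA, of partner genes of the NADPH oxidases and of the catalytic subunits CYBB and NOX3 in each library, with colors and shapes by group and replicate. Open symbols near the lower edge mark 0 reads, and RAC1, RAC2, RAC3, POLDIP2 and CYBC1 lie above 10 TPM in every library while the organizers and CYBB stay under 1 TPM.

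CYBB and several of these partners are best known from phagocytes. Of 7 phagocyte markers, 3 were tested and 0 passed in edgeR, with 2 (ITGAM and CD68) at an unadjusted p under 0.05, against 10.5% of all genes tested. PTPRC had 10 reads and SPI1 24 reads over the 6 libraries, and the lysosomal gene CD68 had 177 TPM. The summed level of the 7 markers ranged from 193 to 207 TPM in IR+NC-LV and from 159.8 to 175 TPM in IR+PR-LV, nearly all of it CD68. ITGAM, an integrin subunit of myeloid cells, had 2.09, 1.70 and 4.95 TPM in IR+NC-LV and 0.357, 0.614 and 0.368 TPM in IR+PR-LV (log2 fold change -2.54, standard error 0.42, adjusted p = 0.0755 from edgeR). Whether these differences bear on the oxidase partners was not tested.

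SOD1 and SOD3 depend on copper, which chaperones and transporters deliver. All 6 genes of copper handling were tested and 0 passed the threshold in edgeR, with 1 at an unadjusted p under 0.05 (against 10.5% of all genes tested) and a median log2 fold change of 0.03. This gene was ATOX1, the chaperone that hands copper to the pumps ATP7A and ATP7B, and also the most abundant of the 6. It had 233, 217 and 204 TPM in IR+NC-LV and 169, 173 and 177 TPM in IR+PR-LV, so that the groups did not overlap, as for 11.2% of all genes tested in this direction in TPM. They did not overlap in CPM either, as for 9.54% of all genes. Its log2 fold change was -0.30 (standard error 0.09, unadjusted p = 0.00909, adjusted p = 0.326 from edgeR). One other gene of the 6 separated in CPM, with IR+PR-LV above, as for 7.46% of all genes tested. It was the pump ATP7B, named after its values had been seen (log2 fold change 0.16, standard error 0.12, adjusted p = 0.688 from edgeR), whose groups overlapped in TPM. CCS, which loads copper onto SOD1 and was named after its values had been seen, had 25.9 ± 3.01 TPM in IR+NC-LV and 26.5 ± 2.26 TPM in IR+PR-LV (SD, n = 3 each).

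Catalase reaches peroxisomes through the PEX import machinery. All 9 PEX genes examined were tested, and 0 passed in edgeR, also at an unadjusted p under 0.05. Their median log2 fold change was -0.06, with 4 estimates above 0 and 5 below, and the most abundant was PEX2 at 56.1 TPM.

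Other oxidases that yield hydrogen peroxide were at moderate levels. Of 14 such genes, 7 were tested, 0 passed in edgeR with 0 at an unadjusted p under 0.05, and the median log2 fold change was -0.13 with 6 of 7 estimates below 0. SMOX, the spermine oxidase, was the most abundant at 111 TPM. XDH, xanthine dehydrogenase, had 2.34 TPM and the smallest unadjusted p (log2 fold change -0.34, standard error 0.19, adjusted p = 0.573 from edgeR). DAO and HAO1, peroxisomal oxidases of the proximal tubule and the liver respectively, had 0 reads in all libraries, which allows up to 0.0260 CPM. Of 6 heme peroxidases, which use hydrogen peroxide, only PXDN was tested, at 89.3 TPM, where edgeR estimated the log2 fold change as 0.14 (standard error 0.09, adjusted p = 0.623).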

How the data were processed

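RNA-seq was carried out on 6 libraries from irradiated HK-2 cells, 3 of IR+NC-LV and 3 of IR+PR-LV, grouped by their labels. Low-quality and adapter-containing reads were discarded by the authors, whose deposited read counts per gene are not normalized. The deposited TPM values are counts divided by exon length and scaled to the same sum, and the deposited FPKM values, also made by the authors from the counts, were not used. The submitters' processing notes name featureCounts 2.0.1, DESeq2 1.16.1, CASAVA and hg38, while the aligner, annotation release and strand setting are not given in the sources used here. Counts were tested with edgeR 4.0.16 in R 4.3.3 (filterByExpr with its minimum count at 10 and minimum total at 15, TMM factors from 0.981 to 1.04, quasi-likelihood test, Benjamini-Hochberg adjustment over 15340 genes, threshold 0.05), and the procedure was tested on simulated data. Each standard error was derived from the estimate and its F statistic. DESeq2 1.42.0, other normalizations and filters, summed gene copies, a replicate block and the omission of each library were tried as alternatives. Uniqueness was checked with GENCODE release 29: between 94.4% (NOX5) and 100% of the 100-base stretches of each gene's longest coding transcript occur in no other gene, and 99.6% for SOD2. Replicates within a group differed by more than sampling noise (chi-square per degree of freedom 3.44 to 13.2). Named genes are the 10 genes, PRDM16, oxidase partners, from each list the genes called, the most abundant and the one with the smallest unadjusted p, and the 3 genes nearest in pattern to the gene with the smallest p, and a few results under this rule are not reported here. The members, lists and rules were chosen with earlier results of these data known.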

Additional observations from a re-analysis of the deposited data

How the results depend on the processing

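Of 77 refits of the fold changes of the 6 tested genes, 73 kept direction and side of the threshold, and 0 passed it. The other 4 turned the sign, each with 1 library left out: SOD2 without IR+NC-LV replicate 3 (-0.057), SOD3 without IR+NC-LV replicate 1 (0.031) and without IR+PR-LV replicate 3 (0.016), and CYBA without IR+PR-LV replicate 3 (0.010). With 1 library left out, the log2 fold change ranged from 0.088 to 0.275 for SOD1, -0.057 to 0.203 for SOD2, -0.26 to 0.031 for SOD3, -0.19 to -0.052 for CAT, -0.19 to 0.010 for CYBA and 0.43 to 1.18 for DUOX1. None of the genes of the 10 that were fitted was called under any alternative run (all 10 were fitted in edgeR with no filter). With no filter, 2 of them had an unadjusted p under 0.05 in edgeR. DUOX1 has no value with at least 10 counts in every library, since it is then left out. Over all genes, 10 passed the threshold, against 163 with DESeq2, 342 with no filter, and between 1 (without IR+NC-LV replicate 1, and likewise without IR+PR-LV replicate 3) and 28 (without IR+NC-LV replicate 2) with 1 library left out. The mean share of SOD2 was 16.8% per exon length, 79.7% by counts and 78.5% by median transcript length, both chosen after seeing the data. With 1 library left out, the difference in that share ranged from -1.36 to -0.039 points and that of DUOX1 among the oxidases from 3.66 to 22.2 points.

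Same-numbered libraries deviated together only weakly (correlations across genes of -0.0088, 0.051 and 0.071), and not every library correlated best with its own number. The labels do not state whether same-numbered libraries were handled together. These correlations cannot decide it, since each group was centered on only 3 libraries. With the replicate number as a block, 3 genes passed over all genes and 0 of the 6 genes fitted among the 10. The difference in the SOD2 share gave p = 0.75 in an exact sign-flip test over same-numbered libraries, and that of DUOX1 p = 0.5, where 3 pairs cannot go below 0.25.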
